A study of Homo sapiens with 3 samples.

Results

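The abundant long noncoding RNAs of MG-OKS cells were the rows of the deposited gene table with the biotype lncRNA that had at least 1000 read counts in at least 1 of the 3 libraries. Genes of X and Y inactivation and symbols made of 2 gene symbols joined by a hyphen were left out, the last being 3 rows (SLX1A-SULT1A3, RNASEK-C17orf49 and ATP6V1G2-DDX39B). These criteria gave 58 lncRNAs among 14763 lncRNA rows and 46427 genes in all. Of the 58, 38 had at least 1000 counts in all 3 libraries, 12 in exactly 2 and 8 in exactly 1.

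MG-OKS is a human cell line that the series title places among artificial, cancer stem cell-like osteosarcoma cells, and the labels call its cell type mesenchymal. Poly(A) RNA was sequenced from MG-OKS cells labelled SPRR1A knock down, which received a Silencer Pre-Designed siRNA against SPRR1A, from cells labelled scramble siRNA transfected, and from cells labelled WT, which are called untransfected here. Both siRNAs went in with Lipofectamine RNAiMAX, and whether the untransfected cells met that reagent is not given in the sources used here. Each group is 1 library from 1 line, so no difference below has a replicate check and no p-value is given.

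SPRR1A, the gene aimed at, had 0 counts in the SPRR1A siRNA library, 0 in the scrambled siRNA library and 0 in the untransfected library, so its counts do not check the labels. Total counts were 34453554, 36533542 and 40050593 in those libraries in the same order. All 9 mesenchymal markers examined passed the expression filter of 1 CPM, counts scaled by library size, in at least 1 library. Among them vimentin (VIM) had 47018 counts in the SPRR1A siRNA library, 128424 in the scrambled siRNA library and 138198 in the untransfected library. Of 7 epithelial markers 4 passed, led by the keratins KRT14 and KRT6A, while EPCAM, CDH1 and GRHL2 did not. The summed level of the mesenchymal list was 2384 TPM in the SPRR1A siRNA library, 4601 in the scrambled siRNA library and 4960 in the untransfected library, and that of the epithelial list was 3699, 2652 and 6550 TPM in the same order. The part of these markers in the differences below was not tested. None of 3 blood markers passed. Of 3 endothelial genes VWF and PECAM1 passed and CDH5 was at 0 counts in each library, and the list summed to 1.55, 1.81 and 2.53 TPM in the same order. In RNA from bulk cultures, fewer cells of a type and less RNA per cell cannot be told apart, which holds for every difference below.

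Long noncoding RNAs act without being translated, and several of the most abundant ones have a known place in the cell. NEAT1 is the scaffold of paraspeckles, nuclear bodies that gather RNA-binding proteins, and MALAT1 accumulates in nuclear speckles, where splicing factors are stored. Many others are host genes, whose introns carry small nucleolar RNAs (snoRNAs) or whose primary transcripts carry microRNAs (miRNAs), and the spliced remainder of a snoRNA host is often short-lived because translation of its brief reading frames exposes it to nonsense-mediated decay.

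The start of a snoRNA host gene is shown because transcripts of this class are known for a pyrimidine tract at their first bases, the feature of the 5′ terminal oligopyrimidine RNAs that also encode ribosomal proteins. The motif searched was CTTT, lying whole within the first 12 transcribed bases of the RefSeq promoter entry (GRCh38.p14), and AAAG, its form on the other strand, was counted in the same window. Among the 58 lncRNAs 46 had such an entry. CTTT was present in 6 of 14 snoRNA hosts (42.9%), in 0 of the other 32 lncRNAs, and in 5.23% of all 27305 promoters, while AAAG was present in 0 of the 14 hosts and in 3.94% of all promoters. Each stretch below has 10 bases before the annotated start and 20 from it, with CTTT in capitals, and the match is a description of these letters only.
SNHG16, chr17:76557754-76557783, plus strand: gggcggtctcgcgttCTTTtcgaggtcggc
SNHG32, chr6:31834906-31834935, plus strand: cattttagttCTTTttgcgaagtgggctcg
SNHG5, chr6:85678714-85678743, minus strand: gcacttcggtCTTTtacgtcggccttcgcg
ZFAS1, chr20:49278632-49278661, plus strand: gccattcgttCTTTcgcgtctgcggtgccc
SNHG19, chr16:2155339-2155368, minus strand: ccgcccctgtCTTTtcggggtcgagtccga
SNHG12, chr1:28581854-28581883, minus strand: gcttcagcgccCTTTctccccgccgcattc

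The mature miRNAs of the miRNA hosts are shown because the deposited counts concern the long polyadenylated host transcript and do not measure the mature miRNA. The sequences are those of RefSeq (GRCh38.p14), with the seed, bases 2 to 8, in capitals. No seed is shared among the 8 printed.
miR-31-5p in MIR31HG, chr9:21512158-21512178, minus strand: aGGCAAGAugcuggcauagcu
miR-22-3p in MIR22HG, chr17:1713914-1713935, minus strand: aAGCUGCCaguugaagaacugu
miR-100-5p in MIR100HG, chr11:122152275-122152296, minus strand: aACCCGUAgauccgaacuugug
let-7a-5p in MIR100HG, chr11:122146568-122146589, minus strand: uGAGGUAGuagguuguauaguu
miR-125b-5p in MIR100HG, chr11:122099809-122099830, minus strand: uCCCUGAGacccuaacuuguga
miR-23a-3p in LOC284454, chr19:13836595-13836615, minus strand: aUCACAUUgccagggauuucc
miR-27a-3p in LOC284454, chr19:13836447-13836467, minus strand: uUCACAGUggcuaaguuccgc
miR-24-3p in LOC284454, chr19:13836289-13836310, minus strand: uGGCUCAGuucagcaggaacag

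NORAD and OIP5-AS1 are shown with the elements they are known for. NORAD binds Pumilio proteins through repeats of the letters TGTANATA, searched on the transcribed strand only. The longest GENCODE release 29 transcript of NORAD, 5339 bases long, held 15 of them (2.81 per kilobase), HCG11, an lncRNA below the count minimum, held 16 in 5696 bases, NEAT1 held 6 in 22743 bases, and 14 of the 49 lncRNAs with a matched transcript held any (28.6%), against 17.3% of the 649 matched lncRNA rows that passed the filter. OIP5-AS1, the human counterpart of cyrano, is known for an extensively paired site for miR-7, and its longest transcript, 8829 bases long, held 3 matches to the miR-7-5p seed. PAX8-AS1 held 3 as well, and 20.4% of the matched abundant lncRNAs and 19.3% of the matched lncRNA rows that passed the filter held any. Beside the match printed here, a further 14 bases match the complement of the miRNA's 3′ end. Capitals mark the Pumilio letters, the seed match and the seed.
NORAD, transcript bases 753 to 776: aaggcctgTGTATATAatatgaaa
NORAD, transcript bases 1132 to 1155: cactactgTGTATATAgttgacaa
NORAD, transcript bases 1233 to 1256: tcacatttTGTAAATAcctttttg
OIP5-AS1, transcript bases 2869 to 2894: aacaacaaaatcaccaatGTCTTCCa
miR-7-5p (RefSeq), chr9:83969811-83969834, minus strand: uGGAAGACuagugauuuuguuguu

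Together the 58 lncRNAs held 157742 counts in the SPRR1A siRNA library, 190698 in the scrambled siRNA library and 244897 in the untransfected library. This was 0.458%, 0.522% and 0.611% of all counts in those libraries, and 51.19%, 52.98% and 55.29% of the counts on lncRNA rows. Their summed CPM in the SPRR1A siRNA library was 0.881 times that of the scrambled siRNA library (95% counting interval 0.875 to 0.887) and 0.770 times that of the untransfected library (0.766 to 0.775), and the scrambled siRNA library stood at 0.874 times the untransfected one (0.869 to 0.879). One gene carried much of this difference. With NEAT1 set aside the same ratios were 0.937, 0.904 and 0.965.

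**Figure D1:**
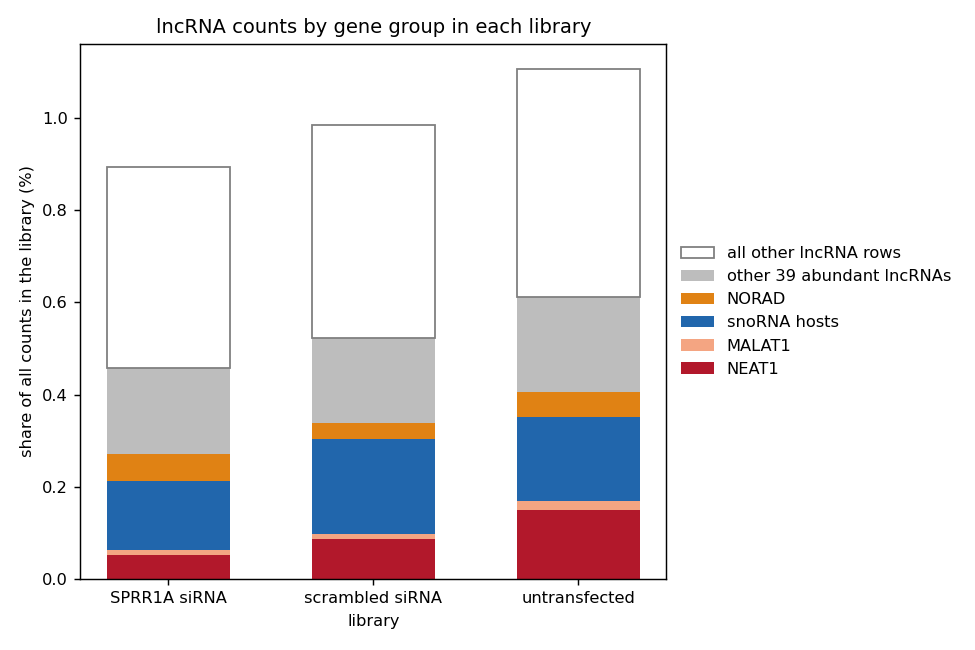
Share of all counts in each library (percent, vertical axis) taken by NEAT1, MALAT1, the snoRNA hosts, NORAD, the remaining abundant lncRNAs and all other lncRNA rows, stacked per library (horizontal axis). The NEAT1 segment is 0.0524% in the SPRR1A siRNA library, 0.0872% in the scrambled siRNA library and 0.150% in the untransfected library, and the snoRNA host segment is lowest in the SPRR1A siRNA library.

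A gene was called higher or lower in one library than in another when the log2 ratio of its CPM was at least 1 in size, a 2-fold difference, and the exact 95% counting interval of the ratio excluded 1. This compares libraries and not conditions, and the intervals cover counting error only, since the reads carry no molecular identifiers. For the 58 lncRNAs the interval reached a median of 0.10 to either side of the log2 ratio in the SPRR1A siRNA against the scrambled siRNA library. Of the 58, 0 were called higher, and 0 lower, in both the comparison with the scrambled siRNA and that with the untransfected library. The share of all genes kept called in both is not given here, so nothing about the 58 is read from this. Against the scrambled siRNA library 1 was called higher (THAP9-AS1) and 1 lower (SNHG16) in the SPRR1A siRNA library, where 3.7% of all 14233 genes kept were called higher and 7.26% lower. Against the untransfected library 0 were called higher and 3 lower (NEAT1, FENDRR and LOC730101), where 2.35% of all genes kept were called higher and 8.35% lower. Between the controls 1 was higher in the scrambled siRNA library (LOC105371453) and 1 lower (THAP9-AS1), where 1.52% of all genes kept were called higher and 3.44% lower. LOC105371453 was among the 58 only through its count in the scrambled siRNA library. In all 3 comparisons the share of the 58 called, 3.45%, 5.17% and 3.45%, was below that of all genes kept, 11%, 10.7% and 4.96%, a set that includes many genes of low counts. Protein-coding genes held to the same minimum of 1000 counts, 7225 in number, were called higher in 2.37%, 1.3% and 0.498% and lower in 4.01%, 4.08% and 1.31%. In either direction they were called in 6.38%, 5.38% and 1.81%. The share of the 58 was below this in the first comparison, close to it in the second and above it in the third. The 1179 lncRNA rows kept were called higher in 7.38%, 5% and 3.82% and lower in 11.4%, 12.3% and 5.6%.

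The median log2 ratio of the 58 was -0.16 in the SPRR1A siRNA against the scrambled siRNA library, -0.07 against the untransfected library, and -0.04 between the scrambled siRNA and untransfected libraries. The medians over all genes kept were -0.0010, -0.0028 and 0.0045. At 1.5-fold in place of 2-fold, 6 of the 58 were called higher and 6 lower in the SPRR1A siRNA library against the scrambled siRNA library, where 11.3% of all genes kept were higher and 15.8% lower. In the comparison with the untransfected library 3 were higher and 10 were lower, where 8.86% of all genes kept were higher and 18.1% lower. Between the scrambled siRNA and untransfected libraries 2 were higher and 8 lower, where 5.09% were higher and 9.7% lower.

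**Figure D2:**
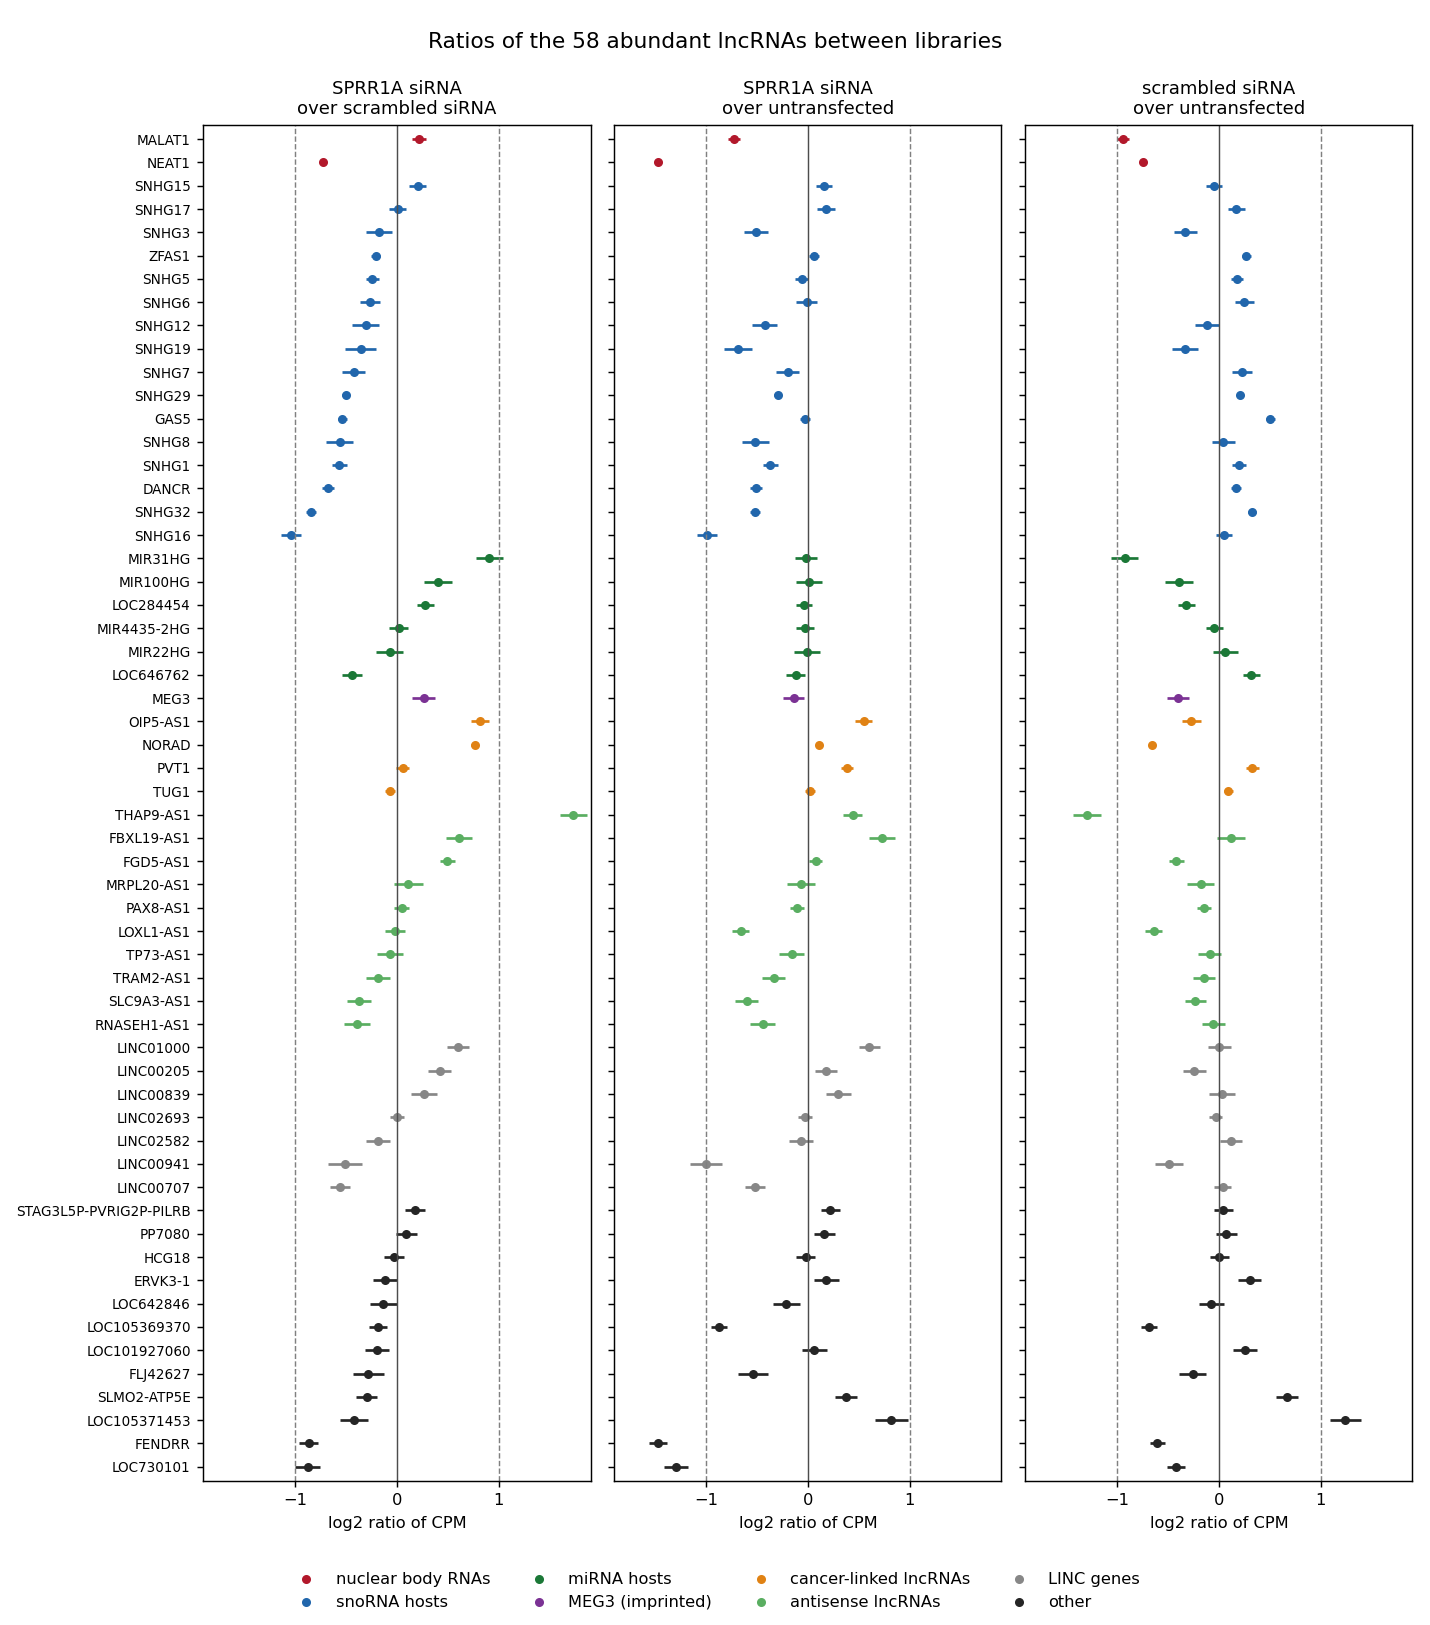
Log2 ratio of CPM (horizontal axis) of each of the 58 lncRNAs (rows, grouped by role and coloured accordingly) in the SPRR1A siRNA over the scrambled siRNA library, the SPRR1A siRNA over the untransfected library and the scrambled siRNA over the untransfected library. Points are ratios, bars are 95% counting intervals and dashed lines mark 2-fold. Most snoRNA hosts lie left of 0 in the first panel, THAP9-AS1 lies at 1.73 there and at -1.29 in the third panel, and NEAT1 and FENDRR lie at -1.48 and -1.47 in the second.

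Per unit of transcript length, in the authors' TPM, 7 of the 8 highest of the 58 were snoRNA hosts or NEAT1, and the eighth was NORAD. SNHG29 led with 706.3 TPM in the SPRR1A siRNA library, 995 in the scrambled siRNA library and 908 in the untransfected library. GAS5 followed with 619, 894 and 655 TPM in the same order. NEAT1 was the only one of the 8 whose highest and lowest libraries differed by more than 2-fold, with 253, 494 and 849 TPM. At the other end LOC105371453 had 5.07 TPM in the SPRR1A siRNA library, 6.74 in the scrambled siRNA library and 2.97 in the untransfected library.

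NEAT1 (chr11:65422798-65445540, GRCh38.p14), the paraspeckle scaffold, had 18068 counts in the SPRR1A siRNA library, 31867 in the scrambled siRNA library and 60143 in the untransfected library, or 530.3, 878 and 1476 CPM. All 3 levels lie apart, with the SPRR1A siRNA library lowest and the untransfected library highest. Its log2 ratio was -1.48 in the SPRR1A siRNA against the untransfected library, a level 2.78-fold lower (95% counting interval 2.74 to 2.83). The log2 ratio was -0.73 against the scrambled siRNA library, and -0.75 in the scrambled siRNA against the untransfected library, neither of which reached 2-fold. The steps on both sides of the scrambled siRNA library were thus of about the same size, and both use that library.

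NEAT1 is known to give a short polyadenylated transcript and a long one that ends without a poly(A) tail, and the kit selects poly(A) RNA. The length that the deposited values imply for each gene, its counts over the deposited FPKM scaled by the library total, moved for NEAT1 between libraries. It was 4840 bases in the SPRR1A siRNA library, 4122 in the scrambled siRNA library and 4149 in the untransfected library. The highest over the lowest was 1.17, the largest of the 58, whose median was 1.01. On the TPM scale the log2 ratio of NEAT1 in the SPRR1A siRNA against the scrambled siRNA library was accordingly -0.96, and -1.74 against the untransfected library. For comparison NORAD, which has no intron, gave 5742, 5815 and 5741 bases in the same order, so the scale is rough by the gap to its annotated length. Which NEAT1 transcript was counted cannot be read from a gene table.

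MALAT1 (chr11:65497738-65506516, GRCh38.p14), the speckle RNA encoded next to NEAT1, had 3714 counts in the SPRR1A siRNA library, 3404 in the scrambled siRNA library and 7346 in the untransfected library, or 109, 93.8 and 180.3 CPM. Both transfected libraries were below the untransfected one. Its log2 ratio was 0.22 in the SPRR1A siRNA against the scrambled siRNA library, -0.73 against the untransfected library, and -0.94 in the scrambled siRNA against the untransfected library, none of them called.

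Of 17 genes for paraspeckle proteins, all of which passed the filter, 0 were called in each of the 3 comparisons. Their median log2 ratio was 0.12 in the SPRR1A siRNA against the scrambled siRNA library and 0.13 against the untransfected library. SFPQ and NONO, the core proteins that bind NEAT1, stood at -0.23 and 0.01 against the scrambled siRNA library. HNRNPA1 was the lowest of the list, at 689 CPM in the SPRR1A siRNA library, 1313 in the scrambled siRNA library and 1201 in the untransfected library (log2 ratios -0.93 and -0.80). Of 14 genes for nuclear speckle proteins 0 were called in each comparison, with medians of 0.21 and 0.15 for the SPRR1A siRNA library against the scrambled siRNA and the untransfected library.

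**Figure D3:**
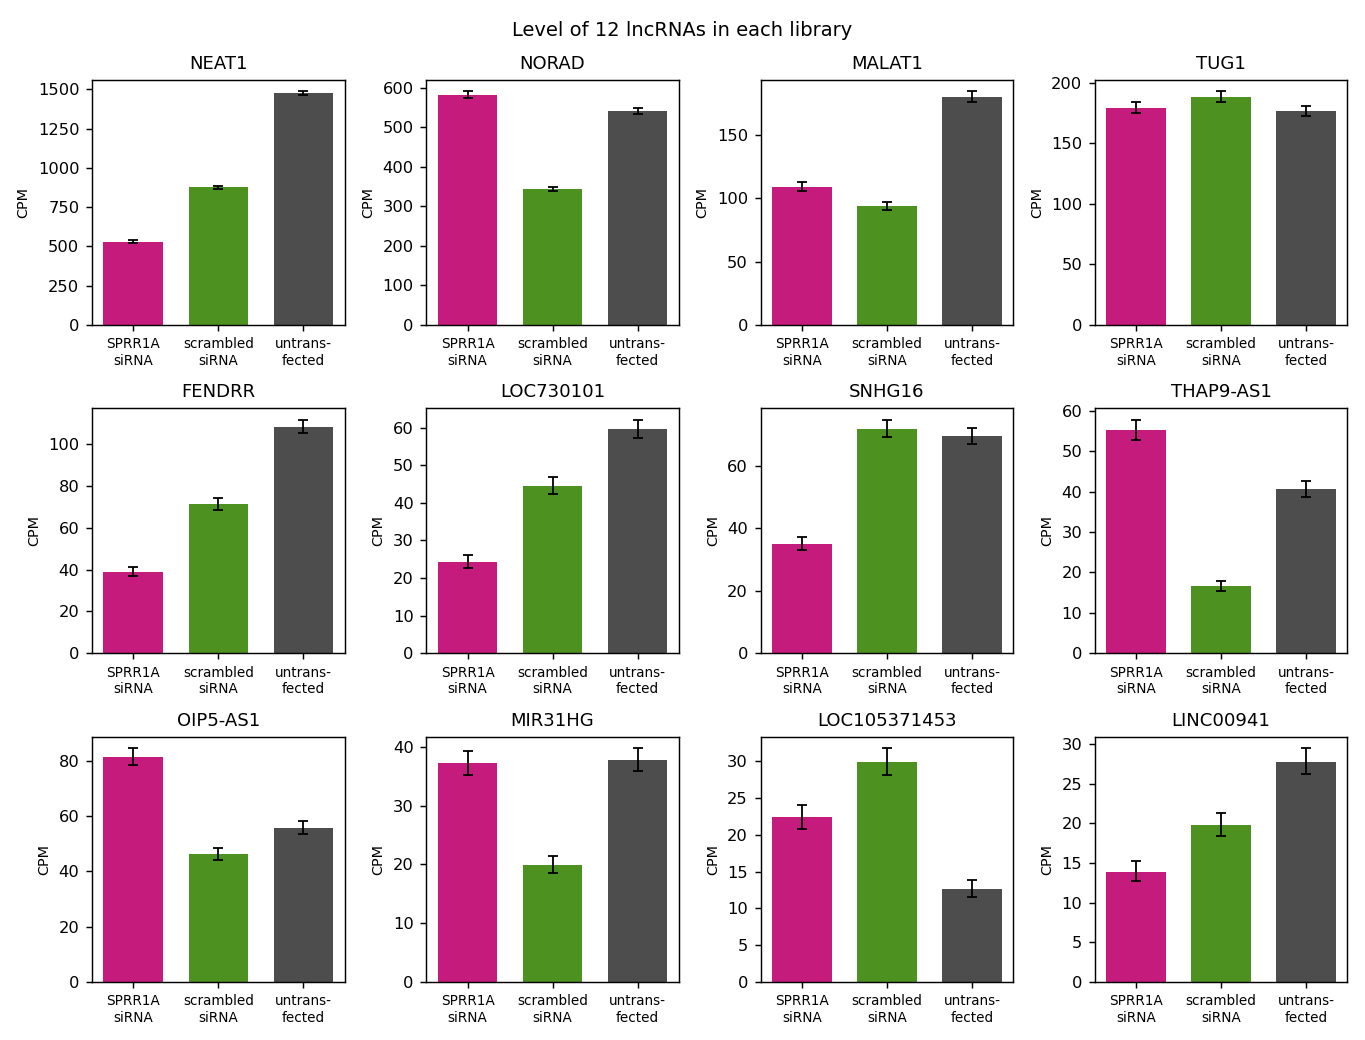
Level in CPM (vertical axis, each panel from 0 on its own scale) of 12 lncRNAs in the SPRR1A siRNA, scrambled siRNA and untransfected libraries (1 bar each, whiskers are exact 95% Poisson intervals for counting error). NEAT1, FENDRR, LOC730101 and LINC00941 are lowest in the SPRR1A siRNA library and highest in the untransfected one. For LINC00941 the high place of the untransfected library is favoured by the count minimum, which it reached in that library only. NORAD, MIR31HG and THAP9-AS1 are lowest in the scrambled siRNA library.

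The snoRNA hosts were the largest group, 16 of the 58. Their introns carry the guide RNAs of ribosomal RNA modification, and by RefSeq coordinates each of the 16 overlapped a snoRNA gene of the table. Against the scrambled siRNA library the log2 ratio of the SPRR1A siRNA library was below 0 in 14 of 16 hosts, with a median of -0.39 beside -0.16 for all 58, and 1 was called lower. Against the untransfected library it was below 0 in 13 of 16, with a median of -0.33 and 0 called. In the scrambled siRNA against the untransfected library the order was the other way, with 12 of 16 above 0, a median of 0.18 and 0 called. Of all 14233 genes kept, 7125 and 7153 were below 0 in the first 2 comparisons, and 7203 were above 0 in the third. SNHG19, at -0.68 against the untransfected library, was among the 58 only through its count there. The summed CPM of the 16 in the SPRR1A siRNA library was 0.725 times that of the scrambled siRNA library and 0.842 times that of the untransfected library. For the 42 lncRNAs that are no snoRNA hosts the 3 medians were -0.02, -0.03 and -0.12.

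SNHG16 (chr17:76557764-76565348, GRCh38.p14), whose start is printed first above, had 1194 counts in the SPRR1A siRNA library, 2612 in the scrambled siRNA library and 2836 in the untransfected library, or 35.0, 71.9 and 69.6 CPM. The controls were close to each other (log2 ratio 0.05) and the SPRR1A siRNA library stood apart from both. It was called lower against the scrambled siRNA library, 2.05-fold (1.92 to 2.20, log2 ratio -1.04). Against the untransfected library its log2 ratio was -0.99, just short of the 2-fold limit.

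SNHG32 had 152 CPM in the SPRR1A siRNA library, 272 in the scrambled siRNA library and 217 in the untransfected library (log2 ratios of the SPRR1A siRNA library -0.84 and -0.52). DANCR, named for its restraint of differentiation in progenitor cells, had 121, 193 and 171 CPM in the same order (-0.68 and -0.51). GAS5, which accumulates in growth-arrested cells, had 177, 257 and 181 CPM, so that the scrambled siRNA library was highest and the SPRR1A siRNA and untransfected libraries differed by -0.03. SNHG29, the most abundant host, had 348, 493 and 427 CPM (-0.50 and -0.30). The SPRR1A siRNA library was thus below both controls in SNHG32, DANCR and SNHG29, and none of these hosts was called.

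SNHG1 and SNHG8 stood at -0.57 and -0.56 against the scrambled siRNA library and at -0.37 and -0.52 against the untransfected library. SNHG7, SNHG12, SNHG19 and SNHG6 had log2 ratios of -0.42, -0.31, -0.35 and -0.26 against the scrambled siRNA library, and of -0.20, -0.42, -0.68 and -0.01 against the untransfected library. SNHG5 and ZFAS1 stood at -0.24 and -0.21 against the scrambled siRNA library and at -0.06 and 0.06 against the untransfected library. SNHG3 was lower against the untransfected library, at -0.51, than against the scrambled siRNA library, at -0.18. The hosts above 0 were SNHG15, at 0.20 against the scrambled siRNA and 0.15 against the untransfected library, and SNHG17, at 0.01 and 0.18. The 6 hosts with CTTT at the start stood at -1.04 (SNHG16), -0.84, -0.35, -0.31, -0.24 and -0.21 (ZFAS1) against the scrambled siRNA library. The other 8 hosts with a promoter entry stood at -0.68 (DANCR), -0.57, -0.56, -0.53, -0.50, -0.42, -0.18 and 0.01 (SNHG17). The values of these sets overlap, and no difference between them was tested.

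**Figure D4:**
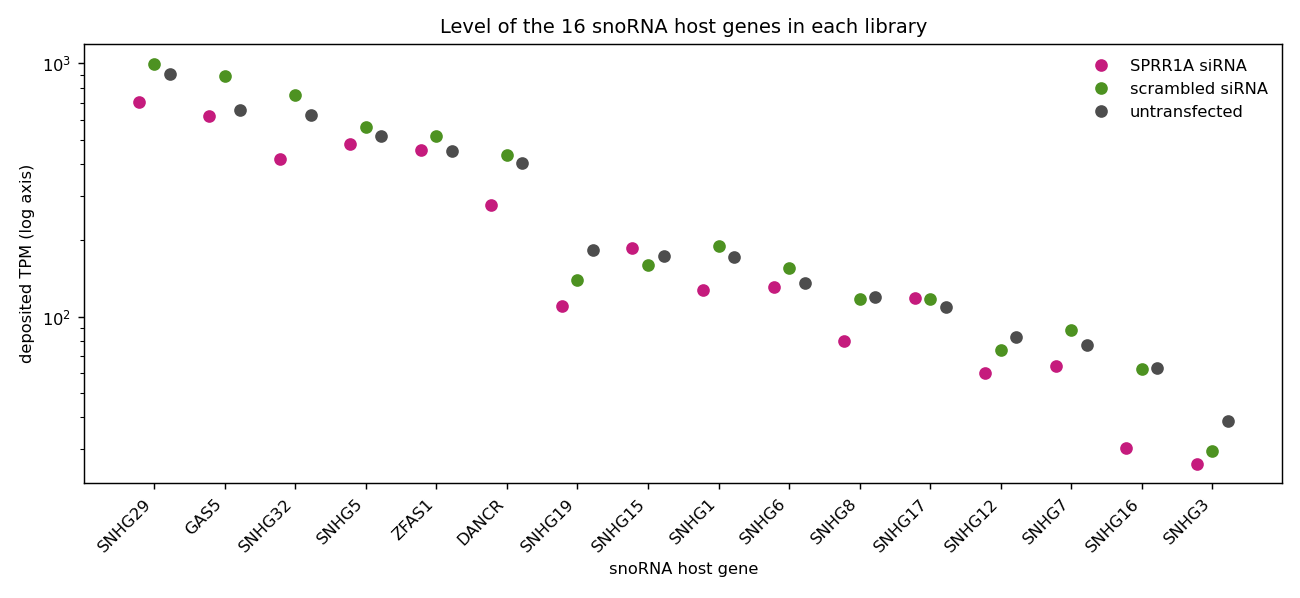
Deposited TPM (vertical log axis) of the 16 snoRNA host genes (horizontal axis, ordered by level in the untransfected library) in the SPRR1A siRNA, scrambled siRNA and untransfected libraries (1 point each). The SPRR1A siRNA point is below the scrambled siRNA point in 14 of 16 hosts, with SNHG16 at 30.3, 61.8 and 62.4 TPM as the widest gap.

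The snoRNA rows themselves, 541 in the table, summed to 3680 counts in the SPRR1A siRNA library, 3271 in the scrambled siRNA library and 3897 in the untransfected library. Their summed CPM in the SPRR1A siRNA library was 1.20 times that of the scrambled siRNA library (1.14 to 1.26), which is the opposite side of 1 from the hosts. Mature snoRNAs have no poly(A) tail, so these few counts do not measure their level. Ribosomal RNA rows took 1.37% of counts in the SPRR1A siRNA library, 1.10% in the scrambled siRNA library and 1.23% in the untransfected library, and their part in the difference among the hosts was not tested. Of 10 genes for snoRNP core proteins 0 were called in each comparison (medians -0.07 and 0.17 for the SPRR1A siRNA library against the scrambled siRNA and the untransfected library). Of 12 factors of nonsense-mediated decay 0 were called, with medians of 0.26 and 0.25. Among them SMG1, the kinase of the pathway, had 356 CPM in the SPRR1A siRNA library, 187 in the scrambled siRNA library and 283 in the untransfected library (log2 ratios 0.93 and 0.33). UPF1, its helicase, had 290.1, 311 and 246 CPM (-0.10 and 0.24). Of 16 genes listed for the nuclear RNA exosome and its adaptors 0 were called, with medians of 0.30 and 0.31. The list also holds PAXBP1, a PAX-binding protein that is no exosome adaptor (0.66 and 0.66).

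The lncRNAs grouped here as miRNA hosts, by their deposited or RefSeq name, were 6 of the 58, and 0 were called in any comparison. By RefSeq coordinates 11 of the 58 overlapped a miRNA gene, among them NEAT1, which was called lower against the untransfected library. MIR31HG (chr9:21454268-21559798, GRCh38.p14), the host of miR-31, had 1270 counts in the SPRR1A siRNA library, 723 in the scrambled siRNA library and 1541 in the untransfected library, or 37.3, 19.9 and 37.8 CPM. The scrambled siRNA library stood alone at the low end, with log2 ratios of 0.90 for the SPRR1A siRNA library against it and -0.92 for it against the untransfected library, while the SPRR1A siRNA and untransfected libraries differed by -0.02. MIR100HG, the host of let-7a, miR-100 and miR-125b, was also lowest in the scrambled siRNA library, with smaller gaps, at 26.9, 20.3 and 26.7 CPM (0.40 and 0.01 for the SPRR1A siRNA library against the scrambled siRNA and the untransfected library). LOC284454, which RefSeq names MIR23AHG, had 70.6, 58.2 and 72.7 CPM (0.28 and -0.04). MIR4435-2HG had 55.9, 55.3 and 57.0 CPM and MIR22HG had 26.3, 27.7 and 26.5 CPM, so that both were level. LOC646762, which RefSeq names MIR550A3HG, was highest in the scrambled siRNA library, at 45.7, 62.1 and 49.8 CPM (-0.44 and -0.12). In the SPRR1A siRNA against the untransfected library the value of LOC646762, -0.12, was the farthest of the 6 from 0. MEG3, the maternally expressed RNA of an imprinted cluster on chromosome 14, had 39.4 CPM in the SPRR1A siRNA library, 32.9 in the scrambled siRNA library and 43.3 in the untransfected library (0.26 and -0.14).

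NORAD (chr20:36045618-36050960, GRCh38.p14), the RNA with the Pumilio elements printed above, had 19863 counts in the SPRR1A siRNA library, 12475 in the scrambled siRNA library and 22043 in the untransfected library, or 583, 344 and 541 CPM. As in MIR31HG, the scrambled siRNA library was lowest. The SPRR1A siRNA library was 1.70-fold above the scrambled siRNA library (1.66 to 1.74, log2 ratio 0.76) and 0.11 above the untransfected library on the log2 scale, and the scrambled siRNA library was 1.57-fold below the untransfected one (1.54 to 1.61). PUM2, one of its protein partners, stood at 0.57 against the scrambled siRNA library and at 0.45 against the untransfected library.

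OIP5-AS1 had 81.5 CPM in the SPRR1A siRNA library, 46.3 in the scrambled siRNA library and 55.8 in the untransfected library. The SPRR1A siRNA library was highest, with log2 ratios of 0.82 and 0.55 against the scrambled siRNA and the untransfected library, and neither was called. ELAVL1, a protein known to bind OIP5-AS1, stood at 0.30 and 0.52. Among genes listed as partners of NORAD and OIP5-AS1, TOP1, the topoisomerase known from a NORAD complex, was called higher against the untransfected library, at 433 CPM in the SPRR1A siRNA library against 210.3 in the untransfected library (log2 ratio 1.04), with 291 in the scrambled siRNA library (0.57).

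TUG1 and PVT1 are both often studied in tumours including osteosarcoma, and TUG1 differed little. TUG1 had 179 CPM in the SPRR1A siRNA library, 189 in the scrambled siRNA library and 177 in the untransfected library, log2 ratios of -0.07 and 0.02. PVT1, the neighbour of MYC, had 127, 122 and 97.3 CPM, log2 ratios of 0.06 and 0.38. Its log2 ratio was 0.33 in the scrambled siRNA against the untransfected library. Both transfected libraries were thus above the untransfected one for PVT1, with counting intervals that excluded a ratio of 1. In no comparison was either called.

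Antisense lncRNAs, named for a coding gene beside or opposite them, were 10 of the 58 apart from OIP5-AS1. The library kit keeps strand, but the strand setting of the authors' counting is not given in the sources used here, so reads of an lncRNA and of a gene on the other strand may not have been kept apart. By RefSeq coordinates, known for 57 of the 58, 22 overlapped a protein-coding gene and 14 overlapped no gene of the table.

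THAP9-AS1 (chr4:82893452-82900916, GRCh38.p14) gave the largest ratio of the 58 in the SPRR1A siRNA against the scrambled siRNA library. It had 1880 counts in the SPRR1A siRNA library, 602 in the scrambled siRNA library and 1658 in the untransfected library, or 55.2, 16.6 and 40.7 CPM. The scrambled siRNA library stood apart from both others. The SPRR1A siRNA library was 3.33-fold above it (3.03 to 3.65, log2 ratio 1.73), and the scrambled siRNA library was 2.45-fold below the untransfected one (2.23 to 2.70, log2 ratio -1.29), while the SPRR1A siRNA library was 0.44 above the untransfected library on the log2 scale. The coding genes it overlaps had smaller ratios. THAP9 had 181 counts in the SPRR1A siRNA library, 127 in the scrambled siRNA library and 178 in the untransfected library (log2 ratios of the SPRR1A siRNA library 0.60 and 0.28), and SEC31A, a coat protein gene of vesicle export, stood at 0.23 and 0.36.

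FBXL19-AS1 was above both controls without reaching 2-fold, at 35.6 CPM in the SPRR1A siRNA library, against 23.3 in the scrambled siRNA library and 21.5 in the untransfected library (0.61 and 0.73), while FBXL19 stood at 0.09 and 0.15. FGD5-AS1 had 104 CPM in the SPRR1A siRNA library, 74.0 in the scrambled siRNA library and 98.9 in the untransfected library (0.49 and 0.07). FGD5 itself had 0 counts in every library, and NR2C2, which FGD5-AS1 overlaps, stood at 0.56 and 0.14. LOXL1-AS1 was low in both transfected libraries, at 47.7 and 48.5 CPM in the SPRR1A siRNA and scrambled siRNA libraries against 75.5 in the untransfected library (-0.66 for the SPRR1A siRNA library, and -0.02 against the scrambled siRNA library), whereas LOXL1, an enzyme of elastin crosslinking, stood at -0.44 against the untransfected library and -0.38 against the scrambled siRNA library.

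In 4 pairs the coding gene was called and the lncRNA was not. PAX8 had 160 counts in the SPRR1A siRNA library, 392 in the scrambled siRNA library and 307 in the untransfected library and was called lower against the scrambled siRNA library (log2 ratio -1.19), with PAX8-AS1 at 0.04. TP73 had 60, 67 and 170 counts in the same order and was called lower against the untransfected library (-1.22), with TP73-AS1 at -0.16, and also lower in the scrambled siRNA than in the untransfected library (-1.15), with TP73-AS1 at -0.09. ZNFX1, whose start lies beside the snoRNA host ZFAS1, had 2813, 7961 and 7979 counts and was called lower against both the scrambled siRNA (-1.41) and the untransfected library (-1.25), with ZFAS1 at -0.21 and 0.06. PILRB, with 66, 26 and 46 counts, was called higher against the scrambled siRNA library (1.37), with STAG3L5P-PVRIG2P-PILRB, which carries its name, at 0.18.

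The other antisense lncRNAs were not called. RNASEH1-AS1 stood at -0.39 against the scrambled siRNA and -0.44 against the untransfected library, and SLC9A3-AS1 at -0.37 and -0.60, with counting intervals that excluded a ratio of 1 in each case. TRAM2-AS1 stood at -0.19 and -0.34, and MRPL20-AS1 at 0.11 and -0.07.

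**Figure D5:**
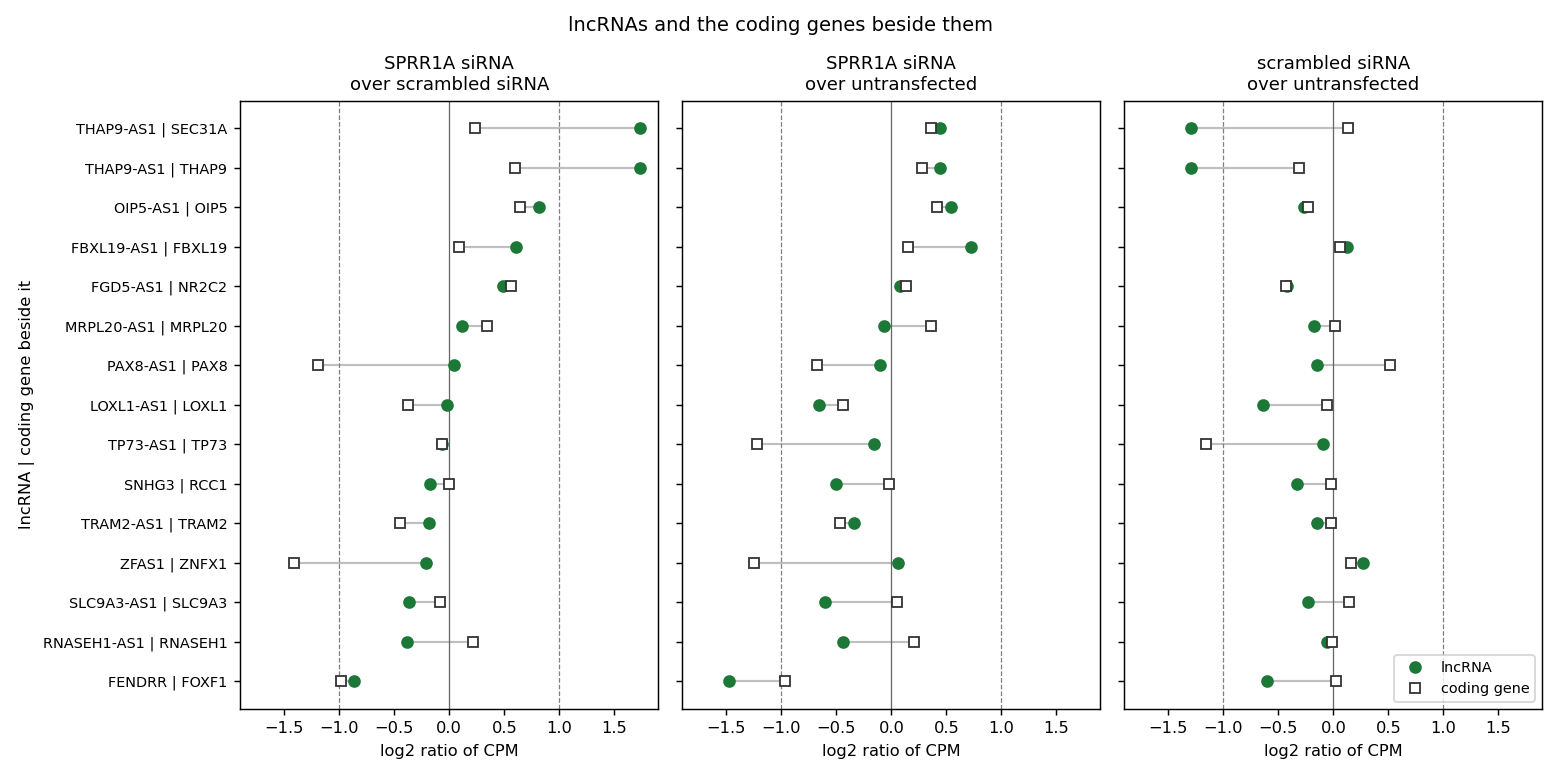
Log2 ratio of CPM (horizontal axis) of lncRNAs (filled circles) and of the coding genes beside or overlapping them (open squares), 1 pair per row, in the SPRR1A siRNA over the scrambled siRNA library, the SPRR1A siRNA over the untransfected library and the scrambled siRNA over the untransfected library. Dashed lines mark 2-fold. FENDRR and FOXF1 lie together in the first panel at -0.87 and -0.99, while ZFAS1 and ZNFX1 lie apart at -0.21 and -1.41.

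FENDRR (chr16:86474525-86508860, GRCh38.p14), known from lateral mesoderm and transcribed beside the transcription factor gene FOXF1, had 1332 counts in the SPRR1A siRNA library, 2592 in the scrambled siRNA library and 4420 in the untransfected library, or 39.1, 71.4 and 108 CPM. The libraries stood in the same order as for NEAT1. It was called lower against the untransfected library, 2.77-fold (2.61 to 2.95, log2 ratio -1.47), and was at -0.87 against the scrambled siRNA library. FOXF1 had 1239 counts in the SPRR1A siRNA library, 2620 in the scrambled siRNA library and 2900 in the untransfected library. Its log2 ratios were -0.99 and -0.97, both short of 2-fold. The controls differed for FENDRR (-0.60 in the scrambled siRNA against the untransfected library) but not to that extent for FOXF1 (0.02).

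LOC730101 (chr6:52664401-52669153, GRCh38.p14) overlapped no other gene of the table and had 828 counts in the SPRR1A siRNA library, 1619 in the scrambled siRNA library and 2431 in the untransfected library, or 24.3, 44.6 and 59.7 CPM. It was called lower against the untransfected library, 2.45-fold (2.27 to 2.66, log2 ratio -1.29), and was at -0.87 against the scrambled siRNA library. LOC105371453, a row for which the RefSeq table used here gives no coordinates, had 762 counts in the SPRR1A siRNA library, 1087 in the scrambled siRNA library and 516 in the untransfected library. It was called higher in the scrambled siRNA than in the untransfected library, 2.36-fold (2.13 to 2.63, log2 ratio 1.24), and the SPRR1A siRNA library lay between them (-0.42 and 0.82). LOC105369370 was low in both transfected libraries, at 52.2 CPM in the SPRR1A siRNA library, 59.4 in the scrambled siRNA library and 95.6 in the untransfected library (-0.19 and -0.87).

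The 7 LINC genes included 0 that were called. LINC00941 had 474 counts in the SPRR1A siRNA library, 719 in the scrambled siRNA library and 1134 in the untransfected library. LINC00941 reached the count minimum in the untransfected library only, so a low ratio against that library was favoured by the rule. Its log2 ratio was -0.51 against the scrambled siRNA library and -0.9974 against the untransfected library. The latter was the nearest to the 2-fold limit of all abundant lncRNAs not called. Without the prior count the CPM ratio was 0.49993 (0.448 to 0.557), just past 2-fold, so the prior count set the side of the limit. LINC01000 lay on the other side of 0, at 50.3 CPM in the SPRR1A siRNA library, 33.2 in the scrambled siRNA library and 33.2 in the untransfected library (0.60 and 0.60). LINC00707 stood at -0.56 and -0.52, LINC00205 at 0.42 and 0.18, LINC00839 at 0.26 and 0.30, LINC02582 at -0.19 and -0.07, and LINC02693 at 0.00 and -0.03.

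The remaining lncRNAs were HCG18, ERVK3-1, FLJ42627, LOC642846, LOC101927060, PP7080 (SLC9A3-OT1 in RefSeq), SLMO2-ATP5E and STAG3L5P-PVRIG2P-PILRB. Of their log2 ratios in the SPRR1A siRNA against either control library, that of FLJ42627 against the untransfected library, -0.54, was the farthest from 0. SLMO2-ATP5E and STAG3L5P-PVRIG2P-PILRB are described as readthrough genes and were not removed by the rule on joined symbols. They carry names of neighbouring genes and share sequence with them, so their counts are uncertain. SLMO2-ATP5E had 39.7 CPM in the SPRR1A siRNA library, 48.8 in the scrambled siRNA library and 30.6 in the untransfected library (-0.30 and 0.37).

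The minimum of 1000 counts chose the members by level in any 1 library, so the 8 that reached it in 1 library only were bound to have their highest count there, though not always their highest CPM. Of these 8, 6 reached it in the untransfected library, the most deeply sequenced (MRPL20-AS1, MIR100HG, LOC642846, FLJ42627, LINC00941 and SNHG19). A low ratio of these 6 against that library is favoured by the rule. Of the others, 1 reached it in the SPRR1A siRNA library (FBXL19-AS1) and 1 in the scrambled siRNA library (LOC105371453). Just inside the limit were MRPL20-AS1 with 798 counts in the SPRR1A siRNA library, 787 in the scrambled siRNA library and 1001 in the untransfected library, FLJ42627 with 614, 795 and 1067, and MIR22HG with 897, 1004 and 1078. Just outside were LOC100129034 with 352, 631 and 960 counts in the same order and LINC01133 with 604, 882 and 945.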

How the data were processed

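The deposited table held read counts per gene, with the authors' FPKM and TPM of the same genes, in 3 libraries of 1 group each. The submitters' processing notes name HISAT2 2.1.0 together with the builds GRCh38 and hg38. The sources used here name neither the counting tool nor the annotation. Per the labels' protocols a TruSeq stranded mRNA kit was used. Genes reaching 1 CPM in at least 1 library were kept. Counts were scaled by TMM (edgeR 4.0.16, R 4.3.3; factors 0.9890, 0.9937 and 1.0175 for the SPRR1A siRNA, scrambled siRNA and untransfected libraries), and log2 ratios used a prior count of 2. Intervals were exact Poisson for levels and exact conditional binomial for ratios (scipy 1.17.1). FPKM served only to derive implied lengths. Scripts were tested on simulated data with 200 genes changed. Named lncRNAs were those called, the 8 highest by mean TPM, those on role lists, and antisense genes with their partner; others were named after their values were seen. Members and lists were chosen with earlier results of these data known. Sequences came from RefSeq (GRCh38.p14) and GENCODE release 29 (GRCh38); 46 of 58 members matched a promoter and 49 a transcript. Alternatives were other scalings (DESeq2 1.42.0 size factors among them), filters, folds, TPM and member rules. Some genes of the lists and near the count limit are not reported here.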

Additional observations from a re-analysis of the deposited data

How the results depend on the processing

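With 1 library per group no replicate could be left out. No paired analysis was possible because each group has 1 library. The number of the 58 called was 2 in the SPRR1A siRNA against the scrambled siRNA library, 3 against the untransfected library and 2 between the controls. At 1.5-fold these became 12, 13 and 10. With members taken from 2000 counts they were 1, 3 and 0 of 27 (3.7%, 11.1% and 0%). From 500 counts they were 6, 9 and 3 of 121 (4.96%, 7.44% and 2.48%). With a mean of 1000 counts over the libraries, which 49 lncRNAs reached, the calls between the controls fell to 1. Among the 14 lncRNAs that overlap no other gene of the table they were 0, 2 and 0 (0%, 14.3% and 0%). Against the untransfected library 5.17% of the 58 and 10.7% of all genes kept were called. On deposited TPM, log2(TPM + 1), the numbers of the 58 called were 2, 5 and 1. There SNHG16 (-1.02) and LINC00941 crossed 2-fold against the untransfected library, and LOC105371453 fell to 0.96 between the controls. Total counts without TMM gave 5 against the untransfected library, with SNHG16 at -1.03. TMM without the 50 most abundant genes gave 2, 4 and 2. DESeq2 size factors, a filter of 5 CPM and no filter left all 3 counts as they were. The median log2 ratio of the members kept its sign under each alternative except between the controls, where a mean of 1000 counts gave 0.0014. Of the values called in the main setting, 0 changed sign, and values not called were not checked for sign. Among 126 values of 42 named lncRNAs, 20 not called moved by more than their counting interval reaches on TPM. There 1 value gained a call and 1 lost it. On total counts 5 moved and 1 gained a call. Values near 0 could change sign, as MIR22HG between the controls did, from 0.06 to -0.08 on TPM. Ratios within their counting interval, a median of 0.10 to either side on the log2 scale, are not told apart at this depth.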
